A study of Mus musculus with 18 samples.

Results

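The 8 genes described here are *Ppara*, *Cpt1a*, *Acadvl*, *Acadl*, *Acadm*, *Hadha*, *Ehhadh* and *Pdk4*, which encode a receptor, enzymes and a kinase tied to the burning of fatty acids. They were taken from the 47729 genes of the count table by their symbols, through their Ensembl identifiers, and all 8 were found, counted and tested in every comparison. RNA was sequenced from the colon of 9 mice on a C57BL/6 background, 3 in each of 3 groups. Naive WT mice (mice 1 to 3) were wild type and labelled as controls. WT CAC mice (mice 4 to 6) were wild type and received 1 injection of azoxymethane (AOM) at 10 mg/kg, a colon carcinogen, and 3 cycles of dextran sulfate sodium (DSS) at 2.5% in the drinking water, which injures the colon lining, a model of colitis-associated cancer (CAC). Mice 7 to 9, called *Cldn2*TG CAC, carried a transgene for *Cldn2*, which encodes the tight junction protein claudin-2, under the villin promoter, active in the intestinal epithelium, and received the same AOM and DSS. No naive transgenic group was analysed here, so the effect of the transgene without AOM and DSS cannot be told apart from its effect in treated mice. Neither ages nor the time of day of tissue collection are in the labels.

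Fatty acids enter mitochondria as carnitine esters and are shortened there step by step by β-oxidation, in which acyl-CoA dehydrogenases, hydratases, hydroxyacyl-CoA dehydrogenases and thiolases act in turn. Very long chains are first shortened in peroxisomes, and the acetyl-CoA produced can be turned into ketone bodies. Colonocytes are known to draw much of their energy from the oxidation of butyrate, a short fatty acid made by gut bacteria, and PPARα, a nuclear receptor that binds fatty acids, is known to switch on many of these genes.

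Per mouse, 14142711 to 22262546 reads were counted on genes. The transgene's own gene, *Cldn2*, was at 192 to 259 CPM (counts scaled to a common library total and normalised between mice) in naive WT, at 119 to 137 CPM in WT CAC and at 208 to 251 CPM in *Cldn2*TG CAC mice, so the transgenic mice lay above the WT CAC mice and within the range of the naive mice. Markers of the intestinal epithelium were abundant in every mouse, with 9 genes summing to between 20810 and 27490 CPM. Naive WT mouse 1 differed from the other mice in *Xist*, at 214 CPM against at most 0.203 CPM, and in the Y-linked genes *Ddx3y*, *Uty*, *Kdm5d* and *Eif2s3y*, at 0.0498 to 0.199 CPM against 20.2 to 82.7 CPM. By these genes mouse 1 was female and the other 8 male. Values without mouse 1 are given below for the 8 genes and for the counts over the 8 lists of related genes. Among the WT CAC mice, mouse 4 stood apart. The chi-square of its counts over degrees of freedom was 66.3 against mouse 5 and 65.3 against mouse 6, while mice 5 and 6 gave 31.9, and the neutrophil gene *S100a8* was at 0.559 CPM in mouse 4 and at 18.5 and 13.4 CPM in the other two. Values without mouse 4 are given with those of the other mice. Mitochondrial transcripts took 2.86% to 3.50% of the counts in naive WT, 3.54% to 4.69% in WT CAC and 4.58% to 5.76% in *Cldn2*TG CAC mice.

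The sequences before the start of 4 genes are printed to show the genes that were called most often beside one that was not called. *Acadvl* and *Ehhadh* were called in both comparisons that involve WT CAC mice, *Hadha* lies head to head with *Hadhb* and both were called lower in WT CAC mice, and *Acadl* was called in neither. The sequences are from RefSeq on GRCm38.p6, which gave a promoter for all 8 genes, and are written 5′ to 3′ with matches to the motifs named below in capitals. The 85 bases between *Hadha* and *Hadhb* were bounded by the starts of both genes in the annotation GENCODE M21. RefSeq places the start of *Hadha* elsewhere, with its window at chr5:30154981-30155230 on the minus strand.
Acadvl, 250 bases before the start on the minus strand, chr11:70015429-70015678: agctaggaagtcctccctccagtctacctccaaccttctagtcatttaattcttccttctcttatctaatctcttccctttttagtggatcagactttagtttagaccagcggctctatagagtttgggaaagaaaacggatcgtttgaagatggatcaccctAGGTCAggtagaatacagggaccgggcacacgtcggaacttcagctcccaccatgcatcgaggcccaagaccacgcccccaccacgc
Ehhadh, 250 bases before the start on the minus strand, chr16:21787835-21788084: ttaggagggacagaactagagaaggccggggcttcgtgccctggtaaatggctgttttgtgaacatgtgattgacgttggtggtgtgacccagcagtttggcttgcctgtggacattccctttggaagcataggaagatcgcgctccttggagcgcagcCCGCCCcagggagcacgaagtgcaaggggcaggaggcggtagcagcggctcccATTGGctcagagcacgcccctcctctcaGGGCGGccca
Acadl, 250 bases before the start on the minus strand, chr1:66863310-66863559: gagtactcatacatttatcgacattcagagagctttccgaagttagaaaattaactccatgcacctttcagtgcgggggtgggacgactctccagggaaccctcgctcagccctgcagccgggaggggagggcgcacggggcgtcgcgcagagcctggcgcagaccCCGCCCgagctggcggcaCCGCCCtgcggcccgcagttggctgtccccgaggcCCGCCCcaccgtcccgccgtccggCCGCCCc
Between Hadha and Hadhb, all 85 bases that separate both starts, plus strand, chr5:30155163-30155247: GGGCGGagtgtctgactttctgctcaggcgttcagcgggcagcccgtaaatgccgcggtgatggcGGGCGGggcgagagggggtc

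The motifs were searched on both strands in the 250 bases before the start of each of the 8 genes and of all 32851 promoters in the RefSeq table. The nuclear receptor motif AGGTCA occurred in *Acadvl*, *Cpt1a* and *Acadm*, once in each, and in 14.0% of all promoters. The GC box GGGCGG occurred 4 times before *Acadl*, 2 times before *Ehhadh*, *Ppara* and *Cpt1a*, once before *Hadha* and 2 times between *Hadha* and *Hadhb*, where the windows share bases, and in 32.7% of all promoters. The CCAAT box CCAAT occurred once before *Ehhadh*, *Cpt1a* and *Pdk4*, and in 33.85% of all promoters. None of the 8 windows held 2 AGGTCA motifs in the same direction 1 base apart, the arrangement PPARα is known to bind (0.033% of all promoters). None held TCAAGGTCA, which contains AGGTCA and is known for oestrogen-related receptors (0.387%), the E-box CACGTG (6.02%) or the D-box TTATGTAA (0.819%). These are matches of letters in short windows. The 85 bases between *Hadha* and *Hadhb* are shorter than the windows behind these shares.

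Levels between genes can only be compared per length, here as RPKM (CPM divided by the exon length in kilobases), and on that scale *Acadl* was the highest of the 8 in naive WT mice at 123 ± 14.6 RPKM (mean ± SD, n = 3). *Cpt1a* followed at 68.1 ± 7.39 RPKM. *Acadm* at 39.0 ± 3.33, *Hadha* at 37.3 ± 1.10 and *Acadvl* at 35.4 ± 5.15 RPKM came next, and the mice of these 3 genes overlapped. *Ehhadh* was at 17.6 ± 0.972 RPKM, and *Pdk4* at 1.31 ± 0.394 and *Ppara* at 0.713 ± 0.103 RPKM were the lowest, with no overlap between them. The receptor and the kinase were thus counted in few reads, 28 to 63 per mouse for *Ppara* and 12 to 137 for *Pdk4*, whereas the enzymes were counted in 478 reads or more. The exon length of *Hadha* in the table, 8730 bases, is the longest of the 8 and lowers its level per length.

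The first comparison asked how AOM and DSS changed these genes in WT colon. *Hadha* and *Acadvl*, of mitochondrial, and *Ehhadh*, of peroxisomal fatty acid breakdown, fell in WT CAC mice to 68.1%, 62.9% and 71.4% of the naive WT level (log2 fold changes of -0.55, -0.67 and -0.49). These 3 of 8 were called at an adjusted p under 0.05 by edgeR's quasi-likelihood test, all lower, where 6.92% of the 15437 genes tested were called lower. In 6 of 8 genes every WT CAC mouse lay under every naive WT mouse (20.3% of all genes tested). *Acadl* and *Pdk4* were the other two. The median log2 fold change of the 8 was -0.52, against 0.02 over all genes tested. With 1 mouse left out, none of the 8 was called without mouse 1, 2, 3 or 6, while 3 were called without mouse 4 and 2 without mouse 5. Their fold changes moved little in these fits, between -0.77 and -0.55 for *Acadvl*, -0.54 and -0.39 for *Ehhadh* and -0.60 and -0.49 for *Hadha* over all alternatives. The number of genes called in the whole table fell to 631, 135, 404, 1245 and 1062 without mouse 1, 2, 3, 5 or 6 and was 4080 without mouse 4, against 2310 with all mice.

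The second comparison asked how treated transgenic colon differed from treated WT colon. *Acadvl* rose in *Cldn2*TG CAC mice to 157% and *Ehhadh* to 141% of the WT CAC level (log2 fold changes of 0.65 and 0.50). These 2 of 8 were called, both higher, where 2.19% of the 14888 genes tested were called higher. In 5 of 8 genes (*Ppara*, *Acadm*, *Acadvl*, *Ehhadh* and *Hadha*) every *Cldn2*TG CAC mouse lay above every WT CAC mouse (14.2% of all genes tested). The median log2 fold change of the 8 was 0.50, against 0.01 over all genes tested. With 1 mouse left out, none of the 8 was called without mouse 7, 8 or 9, 1 (*Acadvl*) without mouse 5 or 6 and 3 without mouse 4. The number of genes called in the whole table was 460, 58, 108, 555 and 805 without mouse 7, 8, 9, 5 or 6 and 2894 without mouse 4, against 1421 with all mice. This comparison uses the same 3 WT CAC mice as the first, so the opposite signs of both are not independent of each other.

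The third comparison set both ends against each other, treated transgenic against naive WT colon. By edgeR's quasi-likelihood test none of the 8 was called, in either direction, where 10.0% of the 15013 genes tested were called. By DESeq2 none was called either, and 1 of the 8, *Pdk4*, passed 0.05 before adjustment in the edgeR fit across all genes, as did 3896 of the 15013 genes. For *Acadvl*, *Ehhadh* and *Hadha* the 95% intervals of the log2 fold change ran from -0.26 to 0.24, from -0.19 to 0.22 and from -0.32 to 0.24. The median log2 fold change of the 8 was -0.02, against 0.00 over all genes tested. The number of genes called in the whole table was 958, 525, 615 and 813 without mouse 1, 3, 8 or 9, against 1501 with all mice, and none of the 8 was called in any fit with 1 mouse left out.

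**Figure D1:**
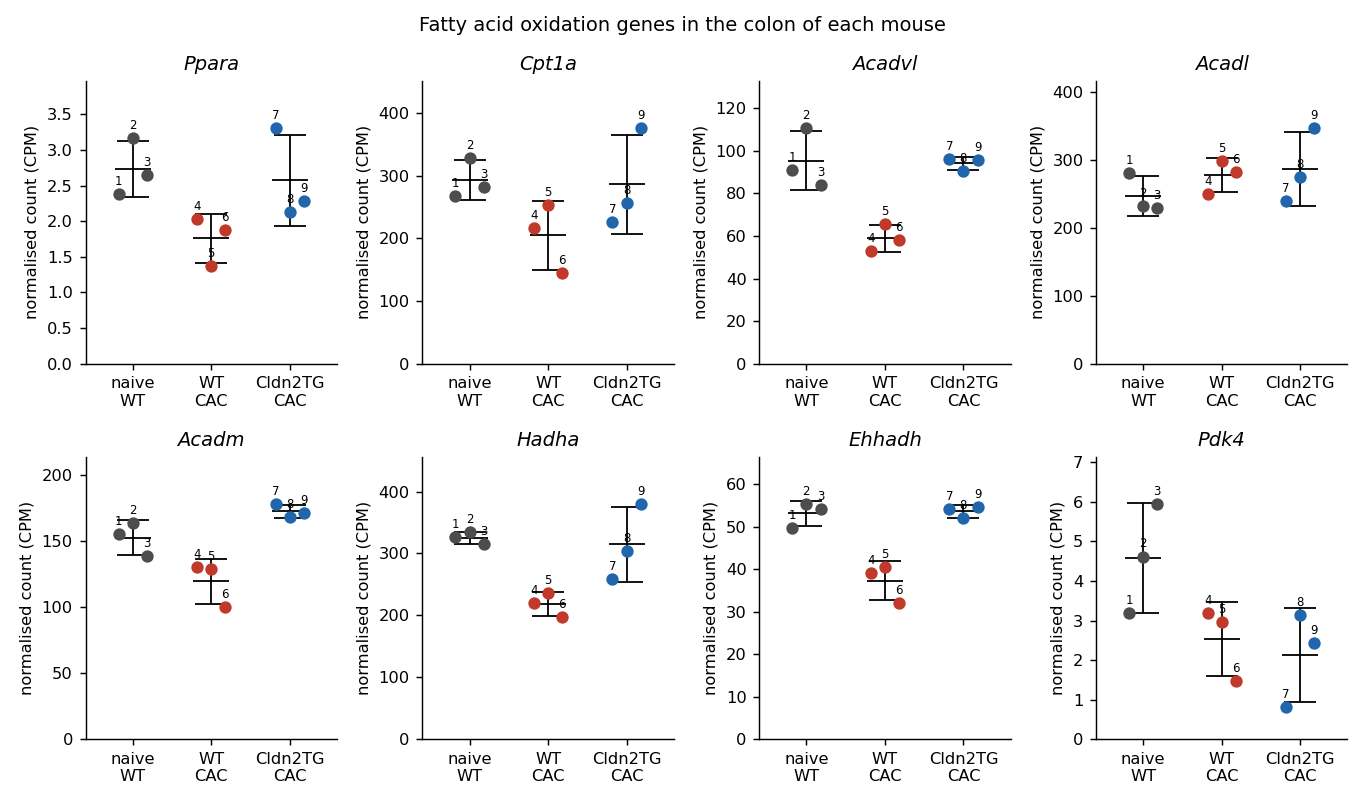
Normalised counts (CPM, linear axis from 0) of the 8 genes in each of the 9 mice, numbered 1 to 9; bars give the mean ± SD of 3 mice. In *Acadvl*, *Ehhadh*, *Hadha* and *Acadm* the 3 WT CAC mice lie under all mice of the other two groups, and in *Acadl* the 3 groups overlap.

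**Figure D2:**
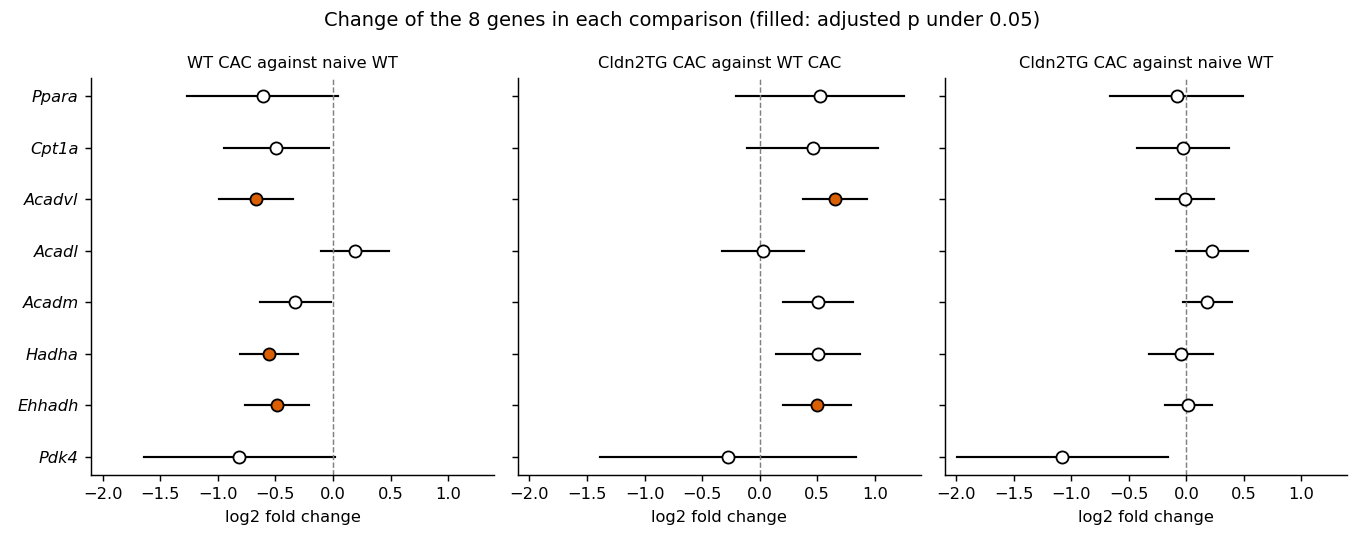
Log2 fold change of each gene with its 95% confidence interval (lines) in the 3 comparisons from edgeR; filled points passed an adjusted p of 0.05. The comparison with naive WT mice has 3 filled points to the left of 0, the comparison of both treated groups has 2 to the right, and the third has 0.

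*Ppara*, the gene of the receptor PPARα (chr15:85734983-85802819, plus strand, GRCm38), was at 2.39, 3.16 and 2.65 CPM in naive WT mice, at 2.03, 1.37 and 1.88 CPM in WT CAC mice and at 3.31, 2.13 and 2.29 CPM in *Cldn2*TG CAC mice. The WT CAC mice lay under both other groups. At these counts the difference did not pass the test in WT CAC against naive WT (log2 fold change -0.61 ± 0.28 (SE), adjusted p = 0.176) or in *Cldn2*TG CAC against WT CAC (0.53 ± 0.32, adjusted p = 0.391). Among its partners, *Ppard*, a related receptor for fatty acids, was at 278, 295 and 244 CPM in naive WT, 131, 195 and 125 CPM in WT CAC and 262, 245 and 233 CPM in *Cldn2*TG CAC mice. *Ppard* fell in WT CAC mice (-0.83 ± 0.18, adjusted p = 0.0246) and rose in *Cldn2*TG CAC against WT CAC mice (0.69 ± 0.18, adjusted p = 0.0421), without overlap between the mice of WT CAC and either other group. *Ppargc1b*, a coactivator that drives mitochondrial genes, was at 23.9, 20.1 and 18.3 CPM, at 8.03, 10.4 and 5.69 CPM and at 18.7, 15.5 and 14.3 CPM in the 3 groups. It had the largest change of the list of partners (-1.34 ± 0.23, adjusted p = 0.0138, and 0.98 ± 0.24, adjusted p = 0.0365). *Ppargc1a*, the related coactivator, fell in WT CAC mice (-0.87 ± 0.18, adjusted p = 0.0208) but did not pass against them in *Cldn2*TG CAC mice (0.41 ± 0.23, adjusted p = 0.343), where mouse 9 had 28.5 CPM and mouse 7 57.3 CPM. *Pparg*, the third PPAR, was at 45.1 to 66.9 CPM in all 9 mice and was called in no comparison. Of the 13 partners and coregulators tested, 4 were lower in WT CAC (*Ppard*, *Ppargc1a*, *Ppargc1b* and the corepressor *Ncor1*) and none higher. In *Cldn2*TG CAC against WT CAC, 3 were higher (*Ppard*, *Ppargc1b* and *Hnf4a*, a transcription factor of the intestinal epithelium) and none lower. Over all genes tested, 6.92% were called lower in the first of these comparisons and 2.19% higher in the second. The 4 became 0 without mouse 1 or 2, 2 without mouse 3 and 1 without mouse 6, and the 3 became 0 with library size only and without mouse 6, 7, 8 or 9. Against naive WT, *Esrra*, an oestrogen-related receptor, was higher in *Cldn2*TG CAC mice (0.41 ± 0.10, adjusted p = 0.0322) and *Ncor1* lower (-0.41 ± 0.11, adjusted p = 0.0368). Neither was called with all 9 libraries in the fit, nor *Esrra* with library size only.

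Other known targets of PPARs gave calls in both directions. Of 10 tested in WT CAC against naive WT, 1 was lower and 2 were higher. Over all genes tested, 6.92% were called lower and 8.04% higher. Of the 10, 0 were called without mouse 1 or 2, 1 without mouse 3 or 5 and 7 without mouse 4. *Acot1*, which releases fatty acids from coenzyme A, fell to 52.2% of the naive level (adjusted p = 0.0353). *Vnn1*, a pantetheinase, rose from 0.498 to 0.753 CPM in naive WT to 1.73 to 3.14 CPM in WT CAC mice (adjusted p = 0.0145) and was lower again in *Cldn2*TG CAC mice at 0.827 to 1.06 CPM (-1.43 ± 0.35 against WT CAC, adjusted p = 0.0358). *Creb3l3*, a transcription factor of lipid metabolism, rose in WT CAC mice (1.84 ± 0.42, adjusted p = 0.0295). *Plin2*, which coats lipid droplets, rose in *Cldn2*TG CAC against WT CAC mice (0.48 ± 0.11, adjusted p = 0.0319), a call lost with library size only. *Vnn1* and *Plin2* were the 2 of 11 called in that comparison, where 2.19% of all genes tested were called higher and 7.35% lower. These 2 calls became 4 by DESeq2 and without mouse 4 and 0 without mouse 5, 6, 7, 8 or 9. *Angptl4*, an inhibitor of lipoprotein lipase and a sensitive PPAR target, was at 0.965 to 5.02 CPM over the 9 mice and was called in no comparison.

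*Cpt1a*, the carnitine acyltransferase that gates the entry of long fatty acids into mitochondria (chr19:3323301-3385732, plus strand), was at 268, 329 and 282 CPM in naive WT, at 217, 253 and 145 CPM in WT CAC and at 226, 257 and 376 CPM in *Cldn2*TG CAC mice. Mouse 6 was the lowest and mouse 9 the highest of all 9, and the treated groups overlapped. *Cpt1a* was called neither in WT CAC against naive WT (-0.49 ± 0.20, adjusted p = 0.129) nor in *Cldn2*TG CAC against WT CAC (0.46 ± 0.25, adjusted p = 0.323). *Cpt2*, which reverses the step inside the mitochondrion, gave -0.39 ± 0.11 (adjusted p = 0.0507) and 0.45 ± 0.18 (adjusted p = 0.166). *Slc25a20*, the carrier between both, gave 0.06 ± 0.16 (adjusted p = 0.834) and 0.27 ± 0.16 (adjusted p = 0.366). Of 13 tested genes of fatty acid uptake, activation and the carnitine shuttle, none was called in WT CAC against naive WT. Only *Fabp2*, an intestinal fatty acid binding protein, was called in *Cldn2*TG CAC against WT CAC, higher (0.63 ± 0.14, adjusted p = 0.0254), and its call was lost with all 9 libraries in the fit and without mouse 5, 6, 7, 8 or 9. Over all genes tested, 2.19% were called higher in that comparison. In the first comparison *Cpt2* was called under 4 of the 7 alternatives that keep all mice, and the list had 0 calls without mouse 1, 2, 3, 5 or 6 and 3 without mouse 4.

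The 3 acyl-CoA dehydrogenases among the 8 catalyse the same first step for different chain lengths. *Acadvl*, for very long chains (chr11:70010183-70015411, minus strand), was at 91.2, 111 and 83.8 CPM in naive WT, at 52.9, 65.5 and 58.3 CPM in WT CAC and at 95.9, 90.4 and 95.8 CPM in *Cldn2*TG CAC mice. The 3 WT CAC mice lay under all others, and *Acadvl* was called in both comparisons (-0.67 ± 0.14, adjusted p = 0.0224, and 0.65 ± 0.12, adjusted p = 0.0156). In the annotation GENCODE M21, 1151 of its 2686 exonic bases, 42.9%, are also exonic in *Dvl2* on the other strand, so that without a stated strand setting its count is uncertain. *Dvl2* itself was at 13.2 to 18.6 CPM in the 9 mice and was not called (0.25, adjusted p = 0.297, and -0.14, adjusted p = 0.687). *Acadm*, for medium chains (chr3:153922357-153944632, minus strand), was at 156, 164 and 139 CPM, at 130, 129 and 100 CPM and at 178, 169 and 171 CPM in the 3 groups. Its groups did not overlap in either comparison, yet it missed the threshold in both (-0.33 ± 0.13, adjusted p = 0.136, and 0.51 ± 0.13, adjusted p = 0.0501). The second difference passed by DESeq2, with no filter on low counts and with all 9 libraries in the fit, and its adjusted p ran from 0.0125 to 0.145 over all alternatives. *Acadl*, for long chains (chr1:66830839-66863277, minus strand), was at 281, 232 and 228 CPM, at 250, 299 and 283 CPM and at 240, 274 and 347 CPM. The 3 groups overlapped, and the log2 fold changes were 0.19 ± 0.13 (95% interval -0.10 to 0.49) and 0.03 ± 0.16 (-0.33 to 0.38). The intervals of *Acadvl* (-0.99 to -0.35) and of *Acadl* in WT CAC against naive WT did not overlap; no test of the difference between genes was made. *Acads*, for short chains such as butyrate, was at 292, 288 and 267 CPM in naive WT, at 230, 171 and 163 CPM in WT CAC and at 259, 336 and 307 CPM in *Cldn2*TG CAC mice. It was lower in WT CAC than in naive WT and higher in *Cldn2*TG CAC than in WT CAC mice (-0.56 ± 0.15, adjusted p = 0.0432, and 0.65 ± 0.17, adjusted p = 0.0445). The first call was lost with lane 2 only and the second with library size only and with lane 1 only.

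*Hadha* (chr5:30118304-30155162, minus strand) and *Hadhb* encode the 2 subunits of the mitochondrial trifunctional protein, which carries out the later steps of long chain oxidation. *Hadha* was at 326, 335 and 315 CPM in naive WT, at 220, 236 and 198 CPM in WT CAC and at 259, 305 and 380 CPM in *Cldn2*TG CAC mice. It fell in WT CAC mice (-0.55 ± 0.11, adjusted p = 0.0193). The *Cldn2*TG CAC mice lay above the WT CAC mice but were spread widely, and the difference did not pass (0.51 ± 0.16, adjusted p = 0.0842), although it passed by DESeq2, with no filter on low counts and with all 9 libraries in the fit (adjusted p from 0.0312 to 0.246 over all alternatives). *Hadhb* was at 120, 124 and 106 CPM, at 70.5, 79.2 and 68.6 CPM and at 102, 105 and 123 CPM in the 3 groups. It passed in both comparisons (-0.65 ± 0.11, adjusted p = 0.0141, and 0.58 ± 0.13, adjusted p = 0.0261). Exons of *Hadha* share 75 bases, 0.9%, with *Garem2* on the other strand, which had at most 0.134 CPM in any mouse.

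Of 15 other tested β-oxidation enzymes of mitochondria, 6 were lower in WT CAC than in naive WT (*Acads*, *Acad11*, *Hadhb*, *Hadh*, *Echs1* and *Etfdh*), none was higher, and 13 had a log2 fold change under 0, with a median of -0.40. Over all genes tested, 6.92% were called lower and 7407 of 15437 had a log2 fold change under 0. In *Cldn2*TG CAC against WT CAC, 5 were higher (*Acads*, *Acad11*, *Hadhb*, *Hadh* and *Echs1*), none was lower, and all 15 had a log2 fold change above 0, with a median of 0.50. Over all genes tested in that comparison, 2.19% were called higher and 7614 of 14888 had a log2 fold change above 0. Without mouse 1, 2, 3, 5 or 6 the 6 became 0, 0, 1, 3 and 2, and without mouse 5, 6, 7, 8 or 9 the 5 became 0, 1, 0, 0 and 0, while without mouse 4 they became 7 and 8. The 5 also became 3 with library size only, 8 by DESeq2 and 9 with all 9 libraries in the fit. *Echs1*, the short chain hydratase that acts after the dehydrogenases, was at 230, 223 and 218 CPM in naive WT, at 151, 137 and 139 CPM in WT CAC and at 223, 226 and 209 CPM in *Cldn2*TG CAC mice. The WT CAC mice lay under all others, and *Echs1* was called in both comparisons (-0.62 ± 0.10, adjusted p = 0.0121, and 0.60 ± 0.11, adjusted p = 0.0157). *Hadh*, which oxidises the hydroxyacyl-CoA of shorter chains, was at 425 to 468 CPM, 298 to 342 CPM and 474 to 484 CPM. Against naive WT, where 3.92% of all genes tested were called higher, 1 of the 15 was called in *Cldn2*TG CAC mice. It was *Eci2*, an enoyl-CoA isomerase, higher (0.43 ± 0.11, adjusted p = 0.0341). That call was lost with library size only, with all 9 libraries in the fit and with lane 2 only.

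*Ehhadh* (chr16:21761287-21787844, minus strand) encodes the bifunctional enzyme of peroxisomal β-oxidation. It was at 49.8, 55.4 and 54.2 CPM in naive WT, at 39.2, 40.6 and 32.0 CPM in WT CAC and at 54.1, 51.9 and 54.7 CPM in *Cldn2*TG CAC mice. The WT CAC mice lay under all others, and the gene was called in both comparisons (-0.49 ± 0.12, adjusted p = 0.0352, and 0.50 ± 0.13, adjusted p = 0.0459). The first call was lost without mouse 1, 2, 3, 5 or 6. The second was lost with library size only, with either lane alone and without mouse 5, 6, 7, 8 or 9. Of 15 other peroxisomal genes tested, 1 was lower in WT CAC than in naive WT, where 6.92% of all genes tested were called lower. It was *Decr2*, which reduces double bonds of fatty acids (-0.39 ± 0.10, adjusted p = 0.0349), and none was called in *Cldn2*TG CAC against WT CAC. In the first of these comparisons 11 of the 15 had a log2 fold change under 0, and in the second 13 were above 0. Over all genes tested, 7407 of 15437 were under 0 in the first and 7614 of 14888 above 0 in the second. The 1 call became 0 with lane 1 only and without mouse 1, 2, 3, 5 or 6, 3 by DESeq2, of which 1 was higher, 2 with library size only, all 9 libraries in the fit or lane 2 only, and 5 without mouse 4. Among these 5, *Acox2* was higher in WT CAC (log2 fold change of 1.25 to 2.25 over all settings). The 0 calls of the second comparison became 1 with all 9 libraries in the fit and 3 without mouse 4.

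Of the genes of ketone body metabolism and transport, *Acat1*, the mitochondrial thiolase that acts in both synthesis and use, was at 262, 258 and 243 CPM, at 163, 155 and 152 CPM and at 243, 252 and 237 CPM (-0.67 ± 0.10, adjusted p = 0.00976, and 0.62 ± 0.11, adjusted p = 0.0133). *Bdh1*, which interconverts both ketone bodies, was at 194, 198 and 199 CPM, at 139, 119 and 114 CPM and at 193, 199 and 203 CPM (-0.64 ± 0.11, adjusted p = 0.0145, and 0.66 ± 0.12, adjusted p = 0.0155). In both genes naive WT and *Cldn2*TG CAC mice lay close together and WT CAC mice apart. *Slc16a1*, the monocarboxylate transporter that carries butyrate, lactate and ketone bodies, was at 585, 688 and 511 CPM, at 403, 304 and 224 CPM and at 570, 581 and 619 CPM. It had the largest change of the list (-0.91 ± 0.22, adjusted p = 0.0327, and 0.90 ± 0.20, adjusted p = 0.0282). *Oxct1*, of ketone use, fell in WT CAC mice (-0.48 ± 0.13, adjusted p = 0.0397). Of the 6 genes listed, 4 were thus lower in WT CAC than in naive WT, where 6.92% of all genes tested were called lower. Of the same 6, 3 were higher in *Cldn2*TG CAC than in WT CAC, where 2.19% were called higher. With 1 mouse left out these counts ran from 0 (without mouse 2) over 1 (without mouse 1 or 3) to 5 (without mouse 4) and from 0 (without mouse 7, 8 or 9) to 4 (without mouse 4).

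*Pdk4* (chr6:5483351-5496309, minus strand) encodes a kinase that shuts off pyruvate dehydrogenase when fatty acids are burnt. It was at 3.18, 4.62 and 5.95 CPM in naive WT, at 3.20, 2.96 and 1.47 CPM in WT CAC and at 0.827, 3.14 and 2.44 CPM in *Cldn2*TG CAC mice. *Cldn2*TG CAC mice lay under the naive mice, while WT CAC mouse 4 lay just above naive WT mouse 1. It was called in none of the comparisons (-0.81 ± 0.36, adjusted p = 0.161, -0.28 ± 0.49, adjusted p = 0.820, and, against naive WT, -1.08 ± 0.41, adjusted p = 0.134). Without the filter on low counts it was called in *Cldn2*TG CAC against naive WT (adjusted p = 0.00245), and over all alternatives of that comparison the adjusted p ran from 0.00245 to 0.351. *Pdk4* was the only one of the 8 with a negative log2 fold change between both treated groups, and without mouse 7 that value was 0.11. *Pdp2*, a phosphatase that reactivates pyruvate dehydrogenase, was at 26.6, 25.5 and 18.7 CPM, at 9.86, 10.9 and 9.37 CPM and at 25.1, 19.3 and 20.9 CPM, and was called in both comparisons (-1.21 ± 0.17, adjusted p = 0.00839, and 1.09 ± 0.17, adjusted p = 0.00907). *Pdk2*, a kinase acting against it, fell in WT CAC mice (-0.65 ± 0.17, adjusted p = 0.0439). Of 12 genes of the complex and its regulators, 5 were lower in WT CAC than in naive WT (*Pdp2*, *Pdk2*, *Pdk3*, *Pdha1* and *Dld*). Between both treated groups 2 were higher in *Cldn2*TG CAC (*Pdp2* and *Dld*), and in neither comparison was any called the other way. Over all genes tested, 6.92% were called lower in the first of these comparisons and 2.19% higher in the second. The 5 became 1 without mouse 1, 3 or 6, 0 without mouse 2 and 2 without mouse 5, and the 2 became 1 with library size only, with lane 2 only and without mouse 5, 6 or 7, 0 without mouse 8 or 9, and 4 with all 9 libraries in the fit and without mouse 4. Against naive WT, *Mpc1*, a subunit of the mitochondrial pyruvate carrier, was higher in *Cldn2*TG CAC mice (0.45 ± 0.12, adjusted p = 0.0353). That call was lost with library size only, with all 9 libraries in the fit and with either lane alone.

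Fatty acid synthesis is the opposite pathway. *Acly*, which makes acetyl-CoA in the cytosol, was at 536 to 575 CPM in naive WT, 296 to 352 CPM in WT CAC and 502 to 599 CPM in *Cldn2*TG CAC mice and was called in both comparisons (-0.78 ± 0.12, adjusted p = 0.0104, and 0.80 ± 0.13, adjusted p = 0.0118). *Me1*, which supplies NADPH for synthesis, was at 5.84, 21.3 and 22.8 CPM in WT CAC and at 2.62, 4.41 and 1.92 CPM in *Cldn2*TG CAC mice (-2.48 ± 0.55, adjusted p = 0.0333). WT CAC mouse 4 lay at the level of naive WT mice, 5.22 to 5.87 CPM. Of 12 genes of synthesis tested in WT CAC against naive WT 1 was called, also without mouse 1, and of 11 tested between both treated groups 2 were called, *Acly* and *Me1*. The 1 became 0 without mouse 2 or 3, 2 by DESeq2 and without mouse 4, and 3 without mouse 6 and with all 9 libraries in the fit. By DESeq2, without mouse 4 and with all 9 libraries in the fit, *Me1* was among the called genes, higher in WT CAC. Its log2 fold change in that comparison was 1.29 to 1.98 over all settings. The 2 became 1 with no filter and without mouse 5, 6 or 7, and 0 without mouse 8 or 9. Over all 8 lists, 96 of 106 genes were tested in each comparison. In WT CAC against naive WT 22 were lower and 2 higher, in the comparison of both treated groups the transgenic mice had 16 higher and 2 lower, and against naive WT they had 3 higher and 1 lower. Over all genes tested, 6.92% were called lower and 8.04% higher in the first, 2.19% higher and 7.35% lower in the second and 3.92% higher and 6.07% lower in the third. Of the 24 genes called in the first of these, 3 (*Acat1*, *Acly* and *Pdp2*) kept their call without mouse 1, 0 without mouse 2, 6 without mouse 3, 23 without mouse 4, 13 without mouse 5 and 10 without mouse 6. Of the 18 called between both treated groups, 18 kept it without mouse 4, 6 without mouse 5, 5 without mouse 6, 2 without mouse 7 and 0 without mouse 8 or 9. Of the 4 called against naive WT, 1 (*Ncor1*) kept it without mouse 1 and 1 (*Esrra*) without mouse 2. Without mouse 7, 2 (*Eci2* and *Mpc1*) kept it, and 0 without mouse 3, 8 or 9. The median log2 fold changes of these genes were -0.25, 0.24 and 0.01.

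**Figure D3:**
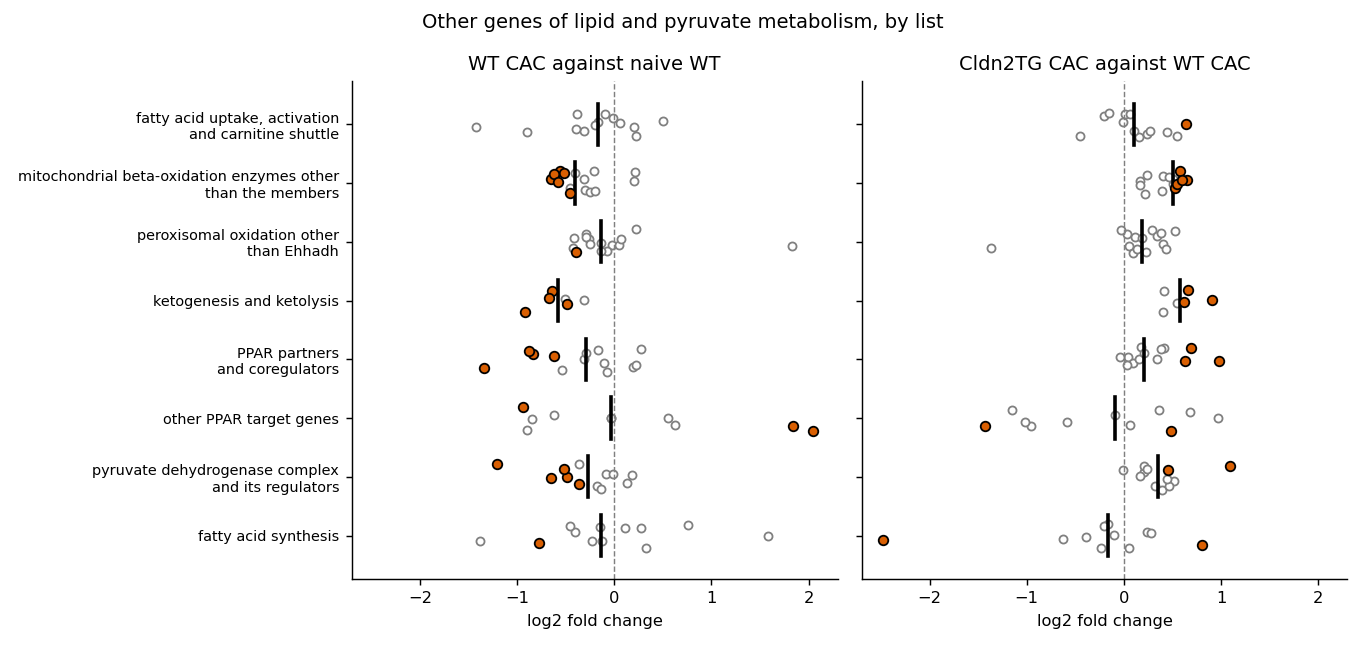
Log2 fold changes of the tested genes of 8 lists, the 8 genes above left out, in WT CAC against naive WT (left) and between both treated groups (right); filled points passed an adjusted p of 0.05, bars are medians of a list and the height within a row carries no meaning. Both panels use the same WT CAC mice. In the mitochondrial list the median is -0.40 in the first comparison and 0.50 in the second.

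In bulk colon RNA fewer cells of a type and less RNA per cell cannot be told apart, and several marker lists moved with the groups. The sum of 9 epithelial markers overlapped between the groups (21170 to 22380 CPM in naive WT, 20810 to 27270 CPM in WT CAC, 22720 to 27490 CPM in *Cldn2*TG CAC), and none of the 9 was called in the first or second comparison. Its most abundant genes, *Lgals4* and *Krt8*, gave 0.17 (adjusted p = 0.552) and 0.22 (adjusted p = 0.305) in WT CAC against naive WT, and 3 of the 9 had a log2 fold change under 0, *Cdh1* (-0.38, adjusted p = 0.133), *Cdx2* (-0.42, adjusted p = 0.200) and *Vil1* (-0.13, adjusted p = 0.544). Every WT CAC mouse lay under every naive mouse in *Cdh1*, at 979 to 1442 against 1559 to 1718 CPM. In 2 of the 9 every WT CAC mouse lay above every naive mouse. These were *Krt18*, at 761.3 to 936.5 against 584.5 to 681.0 CPM, and *Cldn7*, at 1177 to 1362 against 1011 to 1040 CPM. Markers of mature colonocytes, the cells at the crypt surface, summed to 6357 to 9029, 3136 to 6813 and 7412 to 10800 CPM. Of these 9, *Car4* and *Aqp8* were lower in WT CAC than in naive WT (-1.65, adjusted p = 0.0224, and -1.51, adjusted p = 0.0415) and higher in *Cldn2*TG CAC than in WT CAC (1.90, adjusted p = 0.0131, and 1.84, adjusted p = 0.0190). The rest of the list was called in neither comparison. In the first, 1 of the 9 had a log2 fold change above 0, and in the second all 9 had. *Krt20* averaged 1025 CPM in naive WT and 1095 CPM in WT CAC mice. Leukocyte markers summed to 44.5 to 101 CPM in naive WT, 126 to 246 CPM in WT CAC and 24.5 to 55.2 CPM in *Cldn2*TG CAC mice, with 6 of 10 called higher in the first comparison and 6 of 9 called lower in the second. Fibroblast markers summed to 292 to 422, 446 to 1119 and 181 to 260 CPM. Smooth muscle markers were at 2122 to 4197, 1116 to 3054 and 1024 to 1571 CPM, with 5 of 9 called lower in *Cldn2*TG CAC than in naive WT. Goblet cell markers summed to 15020 to 17170, 11250 to 15160 and 13250 to 21590 CPM. Of these 7, 1 was lower and 1 higher in WT CAC than in naive WT, and 1 was higher in *Cldn2*TG CAC than in WT CAC. *Clca1*, a secreted goblet cell protein with the most counts of the list over all mice, fell (-0.96, adjusted p = 0.0173) and was higher in the transgenic mice (0.98, adjusted p = 0.0372). Small intestine markers summed to 284 to 312, 212 to 349 and 369 to 415 CPM, with *Apoa4* and *Lct* at 3 counts or fewer in every mouse. Of the 4 tested, 1 was lower and 1 higher in WT CAC than in naive WT, 2 (*Slc5a1* and *Fabp6*) were higher in *Cldn2*TG CAC than in WT CAC mice, and 2 (*Apob* and *Rbp2*) were higher in the transgenic than in the naive mice. *Slc5a1*, a glucose transporter, had the most counts of the list over all mice (-0.64, adjusted p = 0.0175, and 0.50, adjusted p = 0.0440). Endothelial markers summed to 31.3 to 39.9, 33.0 to 42.9 and 19.5 to 22.7 CPM, with 2 of 5 called lower in *Cldn2*TG CAC than in WT CAC and 3 of 5 lower than in naive WT. Proliferation markers summed to 495 to 604, 278 to 439 and 345 to 502 CPM. All 6 had a log2 fold change under 0 in WT CAC against naive WT, and 1, *Mki67*, was called (-0.93, adjusted p = 0.0116). Fat cell markers were highest in mice 2 and 8, at 153 and 108 CPM, against 9.16 to 40.0 CPM in the other mice. The part of these cell types in the changes of the 8 genes was not tested.

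Clock genes also separated the groups. Of 11 genes of the circadian clock and its output, 10 were called in WT CAC against naive WT, 8 higher and 2 lower, 9 in *Cldn2*TG CAC against naive WT and 4 in *Cldn2*TG CAC against WT CAC. *Dbp*, a transcription factor that cycles strongly over the day, was at 1.39 to 1.86 CPM in naive WT, at 45.3 to 96.0 CPM in WT CAC and at 39.7 to 60.8 CPM in *Cldn2*TG CAC mice. *Tef*, a related factor, was at 12.9 to 19.2, 112 to 178 and 84.1 to 112 CPM, and *Arntl*, which peaks at the opposite time, at 76.6 to 90.8, 8.44 to 13.6 and 24.6 to 31.9 CPM. The part of the clock, or of the time of day, in the changes of the 8 genes was not tested.

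**Figure D4:**
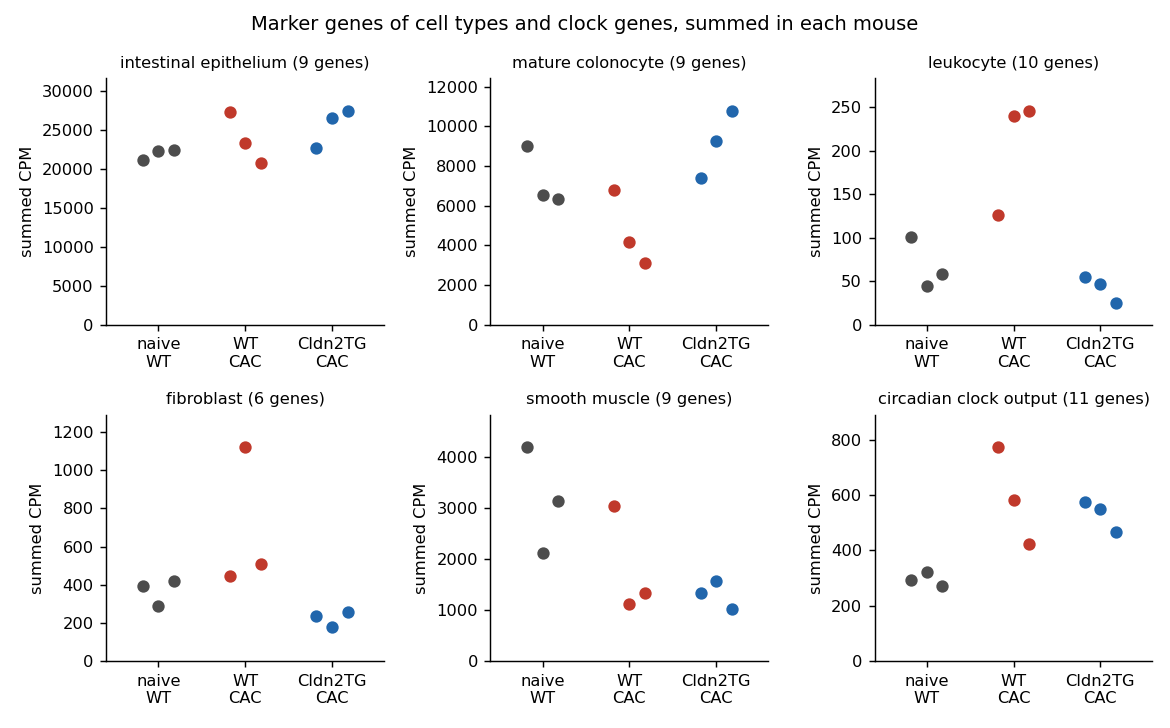
Summed normalised counts (CPM, linear axes from 0) of marker genes of 5 cell types and of clock genes in each mouse, 3 mice per group. Leukocyte markers are highest in the 3 WT CAC mice, at 126 to 246 CPM, and epithelial markers overlap between the groups.

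The genes whose level over the 9 mice was most like that of 3 of the 8 were looked up among 10872 genes with a mean of at least 5 CPM, as a description. *Ehhadh* was most like *Suclg2* (Pearson r = 0.988 of log2 CPM), a subunit of succinyl-CoA ligase, followed by *Rab15* (0.987) and *Rasef* (0.986). *Suclg2* was at 171 to 181 CPM in naive WT, 104 to 124 CPM in WT CAC and 173 to 188 CPM in *Cldn2*TG CAC mice, the same order of groups as *Ehhadh*. *Ppara* was most like *Grb7* (0.956), *Rita1* (0.952) and *Acyp1* (0.927). *Pdk4* was most like *Zfp65* (0.947), *Ankrd49* (0.924) and *Cavin2* (0.909). These are the highest values of the search, and the 9 mice share 3 groups.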

How the data were processed

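RNA from the colon of 9 mice was sequenced in 2 lanes per library on a NovaSeq6000. The authors mapped reads with TopHat2 (the submitters' processing notes name HISAT2) to GRCm38 and deposited whole-number counts per gene from featureCounts; versions and strand setting are not given in the sources used here. No deposited count was normalised. The treatment text stands under the control samples too, so groups were taken from the treatment and genotype labels. Lanes agreed within about counting noise (chi-square per degree of freedom 0.995 to 1.06, where mice of 1 group gave 16.8 to 66.3) and were summed, so each mouse is 1 replicate. The study's methods name littermate controls; which of these mice were littermates is not given in the sources used here.

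Each comparison was fitted on its 6 libraries with edgeR 4.0.16 in R 4.3.3 (TMM, filterByExpr with minimum count 10, robust quasi-likelihood fit, two-sided test). Adjusted p-values are Benjamini-Hochberg values over every gene in the fit, and a gene under 0.05 counts as called; the study used DESeq2, here an alternative (1.42.0). A two-sided exact permutation test of single genes cannot go below p = 0.1 with 3 mice against 3, and is not used for calls. CPM use TMM factors over all 9 libraries; RPKM are CPM per kilobase of exon. Symbols and coordinates are for GRCm38; 47310 identifiers are in GENCODE M21. The 8 genes and all lists were chosen with earlier results of these data known. Named beside the 8 were up to 2 called genes per list, comparison and direction with the largest change (mean of at least 1 CPM). A fixed set of genes (*Ppard*, *Pparg*, *Ppargc1a*, *Cpt2*, *Angptl4*, *Hadhb*, *Acads*, *Slc25a20*) was named too. So were the 2 genes of a marker list with the most counts, and 3 genes like *Ppara*, *Ehhadh* and *Pdk4*. Other names were chosen after their values were seen. Some genes under this rule are not reported here. Alternatives were DESeq2, library size only, RLE factors, no filter, all 9 libraries in the fit, each lane alone and leaving out each mouse. The pipeline was tested on simulated data.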

Additional observations from a re-analysis of the deposited data

How the results depend on the processing

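In WT CAC against naive WT, 3 of the 8 genes were called under each of the 7 alternatives other than leaving out a mouse, and 0 to 3 with 1 mouse left out, while the genes called in the whole table ran from 135 to 4080. In *Cldn2*TG CAC against WT CAC, 4 of the 8 were called by DESeq2, with no filter and with all 9 libraries in the fit (2136 genes in all), where the genes called higher in the whole table were 588, 455 and 642 against 326, 1 with library size only and with either lane alone, and 0 to 3 with 1 mouse left out (58 to 2894 genes). In *Cldn2*TG CAC against naive WT, 1 was called with no filter (2567 genes in all), 0 with all 9 libraries in the fit (445 genes) and 0 in every fit with 1 mouse left out (525 to 1383 genes). The counts over all genes in the other alternatives stayed within 1.5 times. Library size alone moved the median log2 fold change of all genes from 0.01 to -0.09 between both treated groups and from 0.00 to -0.11 against naive WT, and changed the genes higher and lower from 589 and 912 to 276 and 1310 in the latter. Signs changed only where the value was near 0 or counts were few. Between both treated groups, *Acadl* was -0.083 with library size only and between -0.12 and 0.15 with 1 mouse left out (-0.03 without mouse 4), and *Pdk4* between -0.67 and 0.11. Against naive WT, *Ppara* was 0.043 with lane 1 only and between -0.31 and 0.041 with 1 mouse left out (0.03 without mouse 2); *Cpt1a* ran from -0.27 to 0.11 (0.07 and 0.04 without mouse 2 or 8), *Acadvl* from -0.10 to 0.11 (0.01 without mouse 8) and *Hadha* from -0.20 to 0.068 in such fits; and *Ehhadh* was -0.10 with library size only and ran from -0.019 to 0.049. The adjusted p ran from 0.000635 to 0.0816 for *Acadvl*, 0.00913 to 0.127 for *Ehhadh* and 4.82e-05 to 0.0846 for *Hadha* in the first comparison, and from 0.000141 to 0.0750 for *Acadvl* and 0.0138 to 0.137 for *Ehhadh* in the second. The counts of called genes in the 8 other lists stayed within 1.5 times in 177 and moved further in 135 of their repeats over all settings. The cause of these changes was not tested. No paired analysis was possible because the mice of the groups share no replicate numbers. Low counts limit *Ppara* and *Pdk4*.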
